A study of Mus musculus with 7 samples.

Results

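The replication-dependent histone genes were examined in arcuate neurons sorted by fluorescence from mouse embryos aged E15.5. They were taken as every row of the deposited gene table whose symbol starts with Hist1h, Hist2h, Hist3h or Hist4h, which gave 61 of 18335 rows: 5 H1, 15 H2a, 16 H2b, 12 H3 and 13 H4 genes. The libraries used were 4 of Pomc neurons, which make the precursor of appetite-suppressing melanocortin peptides, and 2 of Npy neurons, which make the feeding peptide neuropeptide Y. All were made from total RNA of cells dissociated from dissected arcuate nuclei. The labels give no genotype, strain, treatment or reporter for either group, and do not say whether replicates came from separate litters, and the p-values below therefore rest on a spread between libraries that may be technical. The column for Npy replicate 3 was left out, because in all 15223 genes with a value it equals the mean of the other 2 Npy columns times a whole percent between 95 and 105.

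Histones are the proteins around which DNA is wrapped. H2A, H2B, H3 and H4 form the core of the nucleosome, and the linker histone H1 binds where DNA enters and leaves it. The genes studied here are transcribed mainly in S phase, when new chromatin needs histones in bulk, and their messenger RNAs usually end in a conserved stem-loop in place of a poly(A) tail. Cells that have left the cycle, such as neurons, keep making replacement histones from other genes, and some members of the replication-dependent family are also expressed there from longer, polyadenylated transcripts. The library kit starts from total RNA, so RNA without a poly(A) tail can in principle be measured.

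The members sit in 4 clusters in GRCm38, with 47 in Hist1 on chromosome 13, 10 in Hist2 on chromosome 3, 3 in Hist3 on chromosome 11 and 1, Hist4h4, on chromosome 6. In the GENCODE M21 annotation 60 are protein coding and 1 is a processed pseudogene, Hist3h2bb-ps. In 58 members every annotated transcript is a single exon. The stem-loop was found on the sense strand of the annotated transcripts of 43 members, against 0.0113% of the 141702 transcripts of other genes, and 24 of the 43 carry the same 16 bases. These examples are shown because they cover the genes on which the results turn, and the capitals mark the 4 bases of the loop between the arms of the stem.
Hist1h1d, Hist1h1e, Hist1h3b and Hist3h2ba: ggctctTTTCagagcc
Hist1h2bk: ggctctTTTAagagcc
Hist1h4d and Hist4h4: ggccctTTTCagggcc
The annotated transcript of Hist1h1b holds no match, which says only that these letters are not within it.

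Promoters of 55 members were matched in RefSeq (GRCm38.p6, 250 bases before to 50 bases after the start). The 4 printed here set a linker histone gene that differed between the groups, Hist1h1b, beside one that did not pass, Hist1h1e, and the H2b gene Hist1h2bk, with separated groups, beside Hist3h2ba, with overlapping ones. Capitals mark, on either strand, the TATA box as TATAAA, the CCAAT box by its own letters, the octamer as ATTTGCAT, and the box known from H1 promoters as AAACACA. These are textbook elements of histone promoters, and none of the marked motifs overlap in these 4 sequences.
Hist1h1b, chr13:21780576-21780875, minus strand: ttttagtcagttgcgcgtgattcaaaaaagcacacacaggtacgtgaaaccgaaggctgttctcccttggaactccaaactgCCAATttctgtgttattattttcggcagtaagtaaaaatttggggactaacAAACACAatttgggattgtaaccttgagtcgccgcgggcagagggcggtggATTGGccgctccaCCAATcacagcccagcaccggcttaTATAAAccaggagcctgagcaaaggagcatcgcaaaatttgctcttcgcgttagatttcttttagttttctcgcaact
Hist1h1e, chr13:23622509-23622808, minus strand: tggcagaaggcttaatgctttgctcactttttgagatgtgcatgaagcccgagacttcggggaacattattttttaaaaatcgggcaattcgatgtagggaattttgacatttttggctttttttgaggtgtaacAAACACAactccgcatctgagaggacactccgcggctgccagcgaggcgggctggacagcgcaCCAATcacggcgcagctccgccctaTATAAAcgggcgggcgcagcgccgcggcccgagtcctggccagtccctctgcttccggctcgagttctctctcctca
Hist1h2bk, chr13:22035571-22035870, plus strand: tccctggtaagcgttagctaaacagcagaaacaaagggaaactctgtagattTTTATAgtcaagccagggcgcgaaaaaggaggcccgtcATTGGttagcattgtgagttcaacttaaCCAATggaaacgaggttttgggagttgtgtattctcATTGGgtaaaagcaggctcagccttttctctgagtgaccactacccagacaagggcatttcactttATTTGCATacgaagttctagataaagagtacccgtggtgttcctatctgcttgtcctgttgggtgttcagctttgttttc
Hist3h2ba, chr11:58948661-58948960, plus strand: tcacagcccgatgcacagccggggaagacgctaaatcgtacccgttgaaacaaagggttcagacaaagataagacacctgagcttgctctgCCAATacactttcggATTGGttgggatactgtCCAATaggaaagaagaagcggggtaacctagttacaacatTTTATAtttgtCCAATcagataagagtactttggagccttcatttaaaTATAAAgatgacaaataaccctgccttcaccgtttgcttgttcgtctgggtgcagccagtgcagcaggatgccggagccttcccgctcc
In Hist1h1b and Hist1h1e the first base of the H1 box lies 117 and 115 bases before the start, that of the nearest CCAAT 53 and 52 bases before it, and that of TATAAA 28 and 27 bases before it. Hist1h1b has 2 further CCAAT matches, 66 and 168 bases before its start. Hist1h2bk has the octamer 30 bases before its start and its only TATAAA on the opposite strand. CCAAT was present in 46 of the 55 matched promoters (83.6%, against 37.4% of all 32851 promoters in the table), and TATAAA in 33 (60%, against 13.6%). The octamer was present in 12 (21.8%, against 1.74%), 6 in H2a and 6 in H2b genes, and the H1 box in 6 (10.9%, against 7.18%), 4 of them H1 genes. All matched promoters of H1, H2a, H2b and H3 genes held a CCAAT box, as did 3 of 12 of H4 genes. A match describes letters and is not evidence of a bound site.

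The table gives no unit, and its values were taken as TPM, a relative abundance scaled by gene length. Together the 61 members made up 0.377, 0.265, 0.274 and 0.237% of all TPM in Pomc replicates 1 to 4, against 0.339 and 0.488% in Npy replicates 1 and 2. The summed TPM had a mean of 2884 ± 611 (SD, n = 4) over the Pomc libraries, against 3390 and 4884 in the Npy libraries, and the groups overlapped because Pomc replicate 1, at 3769, exceeded the lower Npy library. The share of TPM in 698 rows picked by short RNA name patterns, some predicted genes included, also separated the groups, at 10.8, 12.9, 13.1 and 12.4% in Pomc libraries against 14.1 and 17.3% in Npy libraries. With each library rescaled without those rows, the log2 ratio of the mean histone sums was -0.59, against -0.52 as deposited. The abundant members set this sum: 11 genes averaging at least 100 TPM over the 2 group means took 67.9 to 74.9% of it in Pomc libraries and 65.3 and 67.8% in Npy libraries. Their sum overlapped as well, at 1706 to 2762 TPM in Pomc against 2213 and 3312 TPM in Npy libraries. For the other 50 members, the sum did not overlap, at 668 to 1007 TPM in Pomc against 1177 and 1573 TPM in Npy libraries. In bulk samples, fewer cells of a type and less RNA per cell cannot be told apart.

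**Figure D1:**
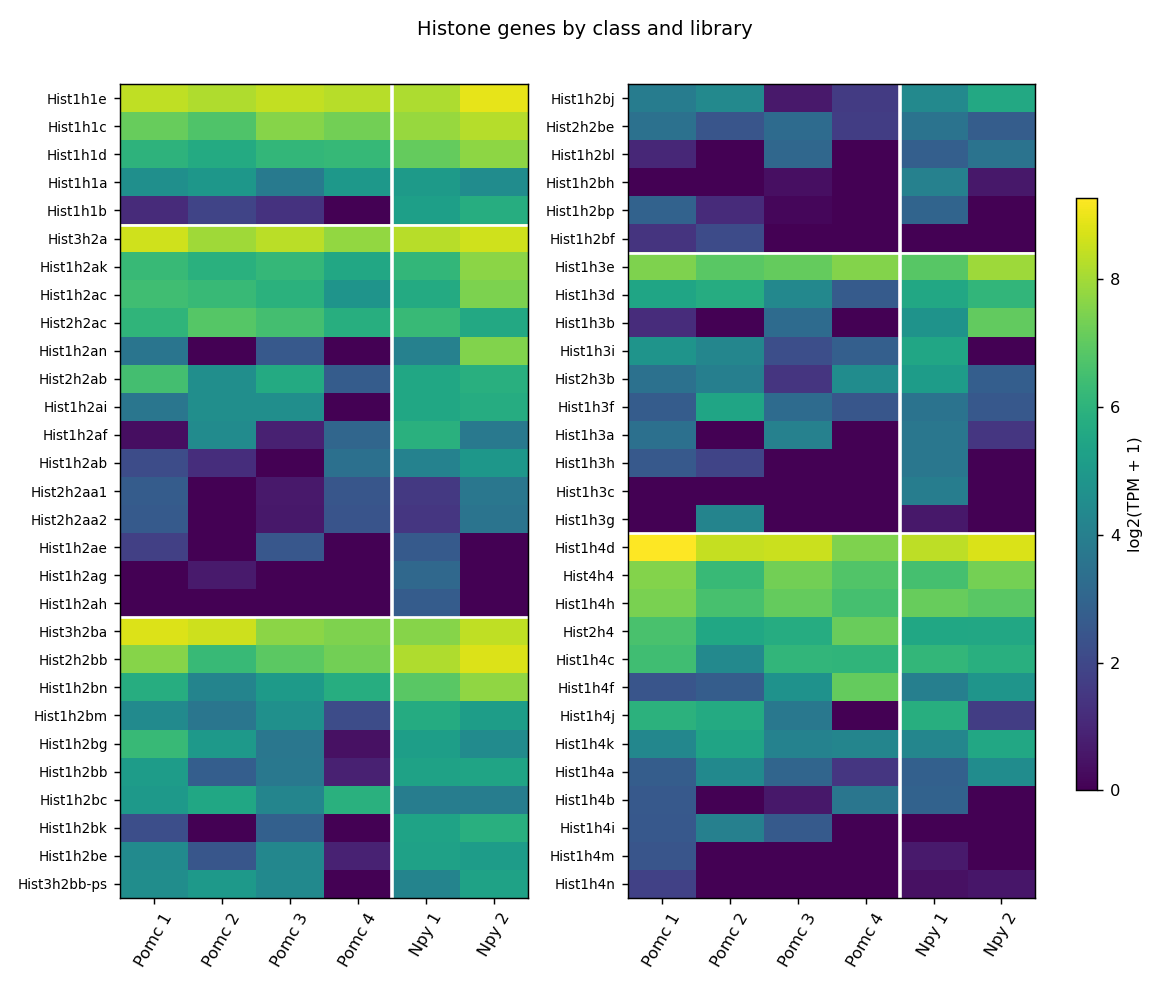
Level of each histone gene, as log2(TPM + 1) by colour, in the 4 Pomc libraries (left of the white line) and the 2 Npy libraries, grouped by class from H1 to H4 and ordered by level within it; the 3 members listed at 0 throughout are left out. Of the 11 most abundant genes, 4 (Hist1h1c, Hist1h1d, Hist2h2bb and Hist1h2bn) are brighter in both Npy columns than in any Pomc column, as are weaker ones such as Hist1h1b and Hist1h2bk.

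Of the 61 members, 58 had a value above 0 in some library and 51 reached 1 TPM in at least 2 libraries and were tested with limma on log2(TPM + 1) over all 13845 such genes. Each of the 51 reached 1 TPM in at least 2 Pomc libraries, so none was tested through its Npy values alone. However, 7 of them, Hist1h4i included, reached it in fewer than 2 Npy libraries and were tested through their Pomc values. The 10 members not tested were Hist1h2ad, Hist2h3c1 and Hist2h3c2, listed at 0 in all 6 libraries, and Hist1h2ag, Hist1h2ah, Hist1h2bh, Hist1h3c, Hist1h3g, Hist1h4m and Hist1h4n, each at 1 TPM or more in 1 library. Of the 51, 40 (78.4%) had a log2 fold change (Pomc minus Npy) below 0, against 48.7% of all tested genes, and their median was -0.70 against 0.02 for all. Without Pomc replicate 4 the median was -0.34, and that library listed 24 of the 61 members at 0, against 8, 17 and 12 in Pomc replicates 1 to 3 and 5 and 15 in the Npy libraries. Over all genes it also had the fewest above 0, 12493, where the other Pomc libraries had 13929 to 14656 and the Npy libraries 14933 and 12922.

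At an adjusted p of 0.05 (limma, Benjamini-Hochberg), 1 member was lower in Pomc neurons and none was higher, while 0.412% of all tested genes passed in either direction and 0.123% as lower in Pomc. At an unadjusted p under 0.05, 14 members were lower (27.5%, against 3.28% of all tested genes) and 1 was higher, where the background was 4.08%. In 13 of the 51 (25.5%) every Pomc library lay below both Npy libraries, as in 7.86% of all tested genes. In 1, Hist1h2bc, every Pomc library lay above both, where the background was 8.05%. Counted over all 61 members without a filter, 14 were lower in this sense (23.0%, against 6.34% of all 18331 uniquely named rows).

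**Figure D2:**
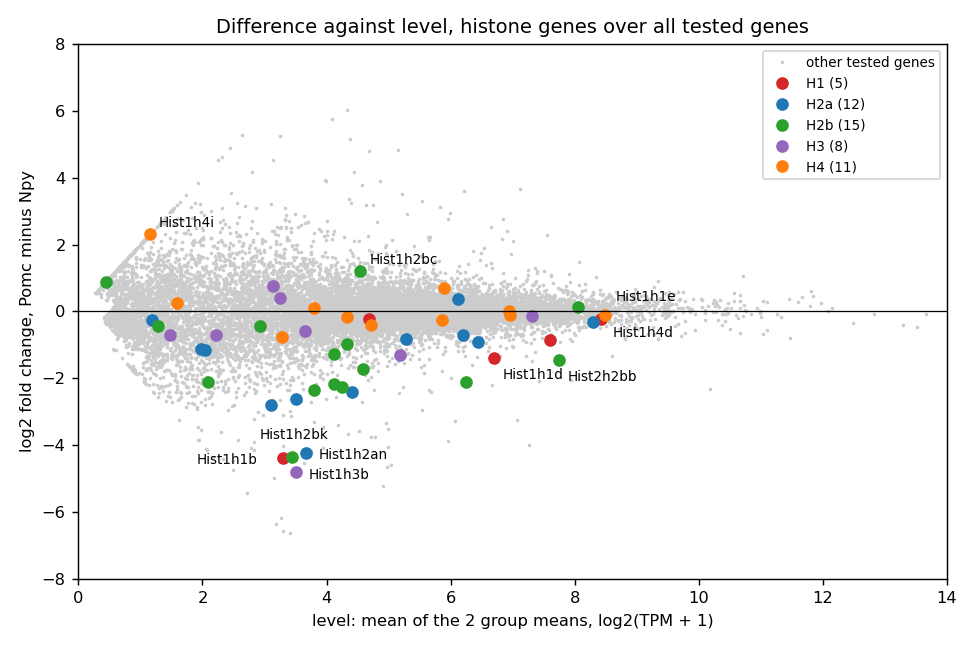
Log2 fold change (Pomc minus Npy) against mean level on log2(TPM + 1), with 51 tested histone genes coloured by class over all other tested genes in grey. Most histone genes lie under the zero line; Hist1h1b, Hist1h2an, Hist1h2bk and Hist1h3b lie lowest, near -4.3 to -4.8, and the abundant Hist1h1e and Hist1h4d lie close to 0.

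The linker histone class held the sole member that passed, and 4 of its 5 genes share at most 8.5% of their 50-base stretches with transcripts of other genes, where the median over the 61 members was 49.3%. Hist1h1b, which encodes the H1.5 linker histone, fell in Pomc neurons. It stood at 1.201, 2.78, 1.54 and 0 TPM in Pomc replicates 1 to 4, against 36.3 and 53.6 TPM in the Npy libraries, so every Pomc library was far below both Npy libraries. Its log2 fold change was -4.39 ± 0.70 (SE, limma adjusted p = 0.0358; exact permutation p = 0.0667 for the absolute difference in mean, the smallest that 15 splits allow). The call ended when Pomc replicate 1, 2 or 3 or either Npy replicate was left out (limma adjusted p = 0.105, 0.0512, 0.103, 0.0969 and 0.558). It also ended with 1 prior variance for all genes, with no filter and with a pseudocount of 0.1 (0.0523, 0.109 and 0.281), and the adjusted p ranged from 0.00357 to 0.558 over the alternatives tried. Hist1h1b (chromosome 13, 21779883 to 21780625, minus strand, a single exon) shares no stretch of 50 bases with the transcripts of any other gene.

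Hist1h1d, the H1.3 gene, was at 62.8, 49.5, 68.6 and 73.5 TPM in Pomc libraries, against 134 and 207 TPM in Npy libraries. The groups were well separated, with a log2 fold change of -1.39 ± 0.25, but the call was missed (limma adjusted p = 0.078). Hist1h1c, the H1.2 gene, was at 138, 105, 192 and 157 TPM against 225 and 301 TPM, also without overlap (-0.85 ± 0.25, adjusted p = 0.393). The other 2 linker genes overlapped between the groups. Hist1h1e, which encodes H1.4 and is among the most abundant members, was at 337, 289, 337 and 311 TPM in Pomc libraries, against 281 and 489 TPM in Npy libraries (-0.22 ± 0.23, adjusted p = 0.867). It overlaps the same-strand genes Hist1h2be and Gm11398 and shares 32.0% of its 50-base stretches with other genes. The part of read assignment in its level was not tested. Hist1h1a, the H1.1 gene, was at 23.6, 28.9, 13.2 and 29.5 TPM against 32.1 and 22.0 TPM (-0.21 ± 0.42, adjusted p = 0.933). Its annotated transcript, too, shares no 50-base stretch with another gene.

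**Figure D3:**
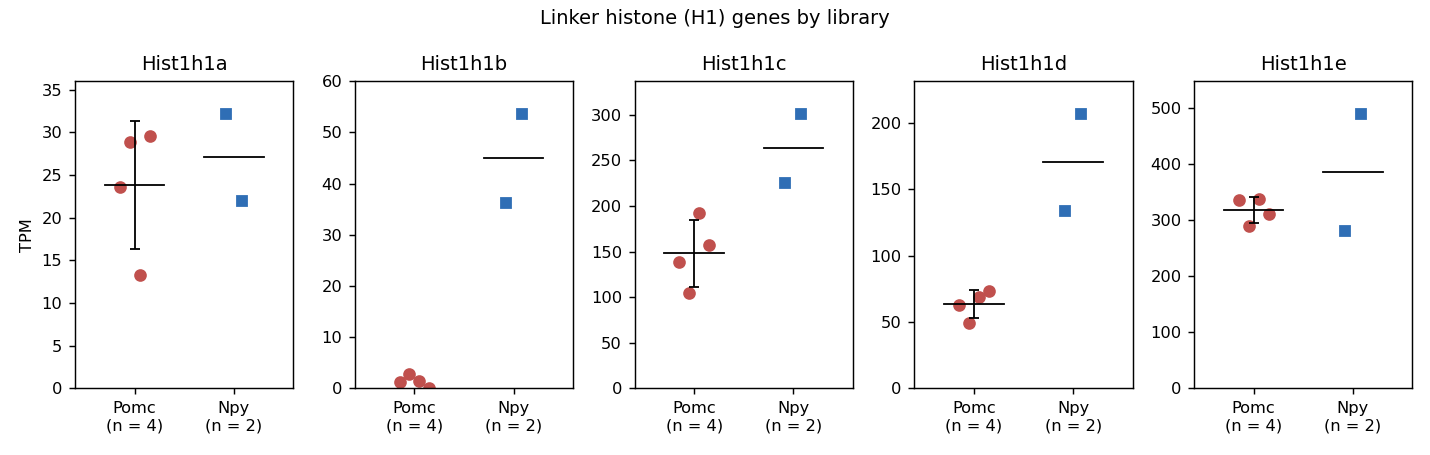
TPM of the 5 linker histone genes, with a point for each Pomc library (circles) and each Npy library (squares), bars at the group means and, for Pomc, whiskers of 1 SD, both left out for the Pomc libraries of Hist1h1b, where 1 is listed at 0. The groups are separate for Hist1h1b, Hist1h1c and Hist1h1d and overlap for Hist1h1a and Hist1h1e.

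The make-up of the linker histone RNA, computed from the same values, also separated the groups. Summed over the 5 genes, H1 stood at 562, 475, 612 and 571 TPM in Pomc libraries, against 709 and 1072 TPM in Npy libraries. Hist1h1b contributed 0.214, 0.586, 0.252 and 0% of that sum in Pomc libraries, against 5.12 and 5% in Npy libraries. Hist1h1d contributed 10.4 to 12.9% in Pomc against 18.9 and 19.3% in Npy libraries. The share of Hist1h1e was higher in every Pomc library, at 54.5 to 60.8%, against 39.7 and 45.6%. Its TPM overlapped, and its share depends on the other linker genes too. Hist1h1c, at 22.1 to 31.3% against 31.8 and 28%, and Hist1h1a, at 2.16 to 6.08% against 4.53 and 2.05%, overlapped.

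Among the core histones, the H2b genes had the lowest median log2 fold change, -1.45 over 15 tested members, of which 12 were below 0 and none passed. In 6 tested members every Pomc library lay below both Npy libraries. Hist2h2bb, one of the most abundant, was at 192, 74.9, 121 and 156 TPM in Pomc libraries, against 286 and 434 TPM in Npy libraries (-1.45 ± 0.35, limma adjusted p = 0.221). Hist1h2bn was at 54.4, 17.1, 31.9 and 53.5 TPM against 119 and 209 TPM (-2.11 ± 0.46, adjusted p = 0.153). Hist1h2bk was at 3.69, 0, 6.12 and 0 TPM against 41.0 and 55.9 TPM (-4.35 ± 0.92, adjusted p = 0.142). Both Npy libraries lay above the highest Pomc library in these 3 genes. Hist1h2bk and Hist1h2bn share 74.2 and 86.4% of their 50-base stretches with other genes, in each case including the other one, so reads could be exchanged between them. Hist2h2bb lies inside the same-strand gene Gm42743, with which it shares 53.6%. The other tested H2b genes without overlap were Hist1h2bb, Hist1h2be and Hist1h2bm, named for that after their values were seen, with log2 fold changes of -2.26 ± 0.98, -2.18 ± 0.94 and -1.71 ± 0.68. Hist1h2bb, for example, was at 34.0, 5.88, 12.0 and 0.819 TPM against 39.8 and 41.5 TPM, so that Pomc replicate 1 was close to the Npy libraries.

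Other H2b genes overlapped or lay the other way. Hist3h2ba was at 440.2, 381, 199 and 179 TPM in Pomc libraries, against 191 and 332 TPM in Npy libraries, with full overlap (0.14 ± 0.39, limma adjusted p = 0.953). Hist1h2bj, at 13.8, 19.7, 0.535 and 2.06 TPM against 19.6 and 47.1 TPM, overlapped only through Pomc replicate 2 (-2.35 ± 1.04, adjusted p = 0.675). The exception in direction was Hist1h2bc, at 30.1, 45.0, 17.8 and 58.6 TPM in Pomc libraries, against 14.3 and 14.3 TPM in Npy libraries (1.21 ± 0.47, adjusted p = 0.600). It is outside the rule for named genes and was chosen after its values were seen, as the sole member with every Pomc library above both Npy libraries. Hist1h2bc is also 1 of the 3 members with a spliced transcript, and no stem-loop was found in its annotated sequence.

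The 12 tested H2a genes had a median of -1.03, with 11 below 0, none past the threshold and 3 without overlap. Hist1h2an was at 11.1, 0, 4.96 and 0 TPM in Pomc libraries, against 15.7 and 183 TPM in Npy libraries (-4.25 ± 1.26, limma adjusted p = 0.382), with Npy replicate 2 far above all others and Npy replicate 1 close to Pomc replicate 1. Hist1h2ab was at 3.399, 1.33, 0 and 9.70 TPM against 16.1 and 29.2 TPM, low in both groups but without overlap (-2.81 ± 0.92, adjusted p = 0.467). The other such gene was Hist1h2ai, chosen after its values were seen, at 11.5, 22.7, 22.9 and 0 TPM against 44.8 and 51.9 TPM (-2.42 ± 1.15). The abundant H2a genes overlapped. Hist3h2a was at 386, 244, 313 and 215 TPM against 312 and 389.8 TPM (-0.31 ± 0.25, adjusted p = 0.848). Hist1h2ak, at 75.0, 58.4, 71.2 and 46.4 TPM against 69.4 and 201 TPM (-0.93 ± 0.39, adjusted p = 0.650), and Hist1h2ac, at 84.9, 75.9, 58.9 and 27.0 TPM against 49.7 and 173 TPM (-0.70 ± 0.55, adjusted p = 0.839), were highest in Npy replicate 2, with Npy replicate 1 inside the Pomc range. Hist3h2a overlaps the same-strand gene Trim17.

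Of the 8 tested H3 genes 6 were below 0, with a median of -0.65, and none passed. Hist1h3b was at 1.24, 0, 8.46 and 0 TPM in Pomc libraries, against 26.4 and 132 TPM in Npy libraries, and was the sole H3 gene without overlap (-4.81 ± 1.04, limma adjusted p = 0.151). Hist1h3e, the most abundant H3 member, was at 179, 118, 134 and 186 TPM against 115 and 237 TPM, with the Pomc libraries inside the Npy range (-0.13 ± 0.31, adjusted p = 0.948). Hist1h3d was at 42.6, 52.8, 19.0 and 5.26 TPM against 46.0 and 68.4 TPM, overlapping through Pomc replicate 2 (-1.30 ± 0.76, adjusted p = 0.791). Over the class the sums were separate, at 280, 265, 191 and 223 TPM in Pomc against 314 and 449.9 TPM in Npy libraries.

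The H4 genes lay on both sides of 0. Of the 11 tested H4 genes 6 were below 0 and 5 above, the median was -0.10, none passed and none had separate groups. Hist1h4d, the member with the highest mean in Pomc neurons, was at 616, 349.5, 369 and 175 TPM in Pomc libraries, against 321 and 432 TPM in Npy libraries (-0.12 ± 0.41, limma adjusted p = 0.964). Hist1h4h was at 171, 94.9, 133 and 92.8 TPM against 137 and 119 TPM (-0.10 ± 0.27, adjusted p = 0.952). Hist1h4i was at 4.89, 15.48, 5.12 and 0 TPM in Pomc libraries, against a listed 0 in each Npy library (2.30 ± 1.03, adjusted p = 0.681), the opposite direction to Hist1h4a, at 5.59, 20.04, 7.06 and 1.76 TPM against 6.15 and 21.8 TPM (-0.78 ± 0.85, adjusted p = 0.878). Hist1h4i met the filter through its Pomc values alone. As a share of all histone TPM, H4 was higher in every Pomc library, at 33.5, 27.1, 30.7 and 31.5%, against 22.6 and 18.7% in Npy libraries. The summed H4 TPM itself overlapped, at 717 to 1261 in Pomc against 768 and 914 in Npy libraries. The share depends on the sums of the other classes too and is no separate measurement. Whether the classes differ from each other in their change was not tested.

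**Figure D4:**
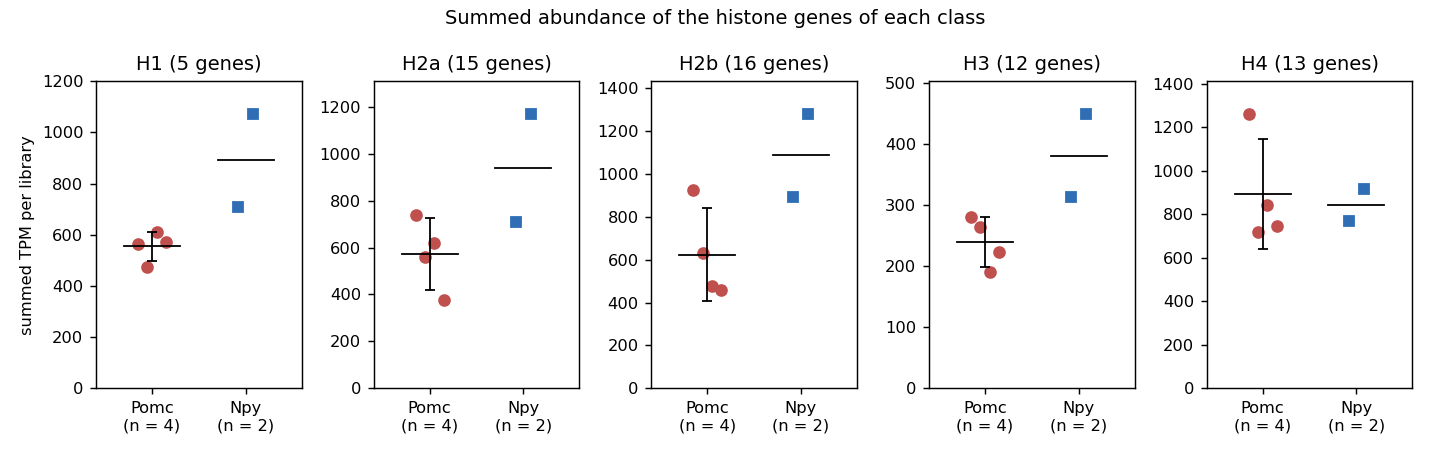
Summed TPM of the genes of each class, with a point for each Pomc library (circles) and each Npy library (squares), bars at the group means and, for Pomc, whiskers of 1 SD. The groups are separate for H1 and H3, overlap through Pomc replicate 1 for H2a and H2b, and overlap fully for H4, at 892 ± 252 TPM in Pomc against 768 and 914 TPM in Npy libraries.

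By cluster, the 47 Hist1 genes summed to 2262, 1642, 1732 and 1482 TPM in Pomc libraries, against 2280 and 3343 TPM in Npy libraries, and Pomc replicate 1 almost reached the lower Npy library. On chromosome 13 they lie in 2 stretches. The 19 genes between 21715763 and 22043676 summed to 323, 263, 208 and 129 TPM in Pomc against 554 and 897 TPM in Npy libraries, a ratio of means of 0.318. The 28 genes between 23531050 and 23764406 summed to 1939, 1380, 1524 and 1353 TPM against 1727 and 2446 TPM, a ratio of 0.742, and overlapped. Similar copies were more common in the first stretch, where 14 of 19 genes share at least 50% of their 50-base stretches with other genes, against 8 of 28 in the second. Over the whole family, the 28 members above that limit summed to 432 to 631 TPM in Pomc against 950.1 and 1679 TPM in Npy libraries, and the 33 below it to 1847 to 3138 TPM against 2440 and 3206 TPM. The part of read assignment in these differences was not tested. Of the 3 members that share no such stretch, Hist1h1b was lower in every Pomc library than in both Npy libraries, and Hist1h1a and Hist2h2be overlapped.

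**Figure D5:**
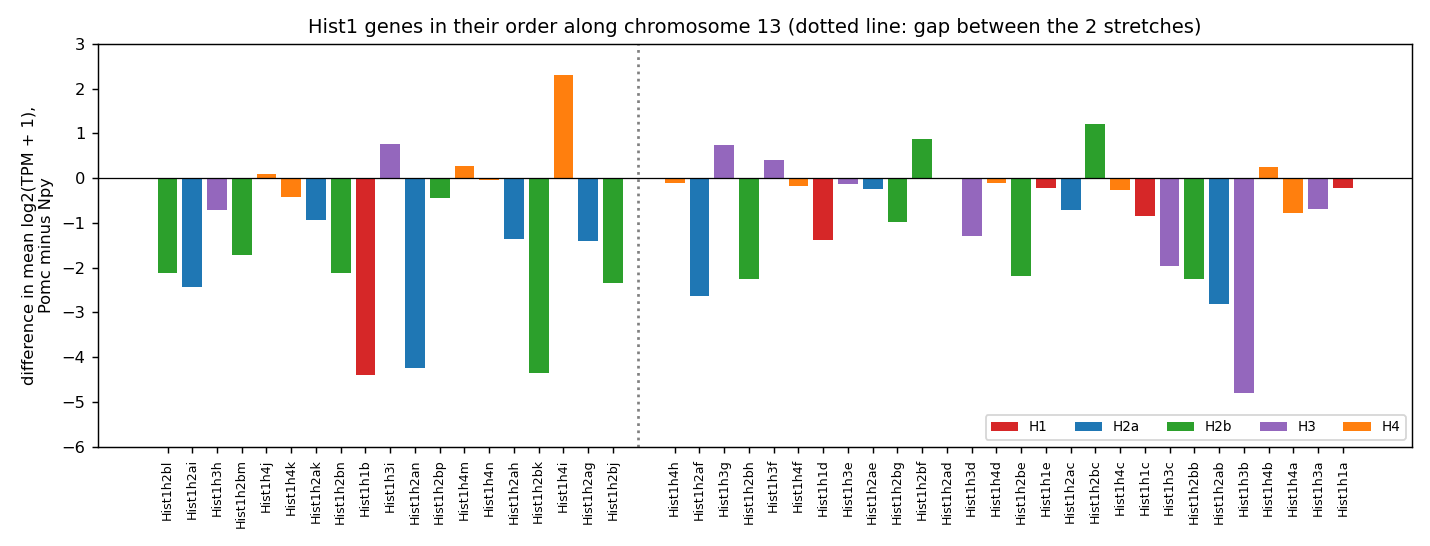
Difference in mean log2(TPM + 1), Pomc minus Npy, for the 47 Hist1 genes in their order along chromosome 13, coloured by class; equal spacing replaces true distance. Bars point down in most genes of both stretches, most H4 bars are short, Hist1h4i points up, and Hist1h2ad, listed at 0 in every library, has no bar.

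The Hist2 genes summed to 473, 276, 324 and 392 TPM in Pomc against 499 and 619 TPM in Npy libraries, without overlap and mainly through Hist2h2bb. Of the other tested Hist2 genes, Hist2h2ac (66.6, 113, 90.05 and 54.6 TPM against 74.2 and 47.9 TPM, 0.38 ± 0.33) and Hist2h4 (95.5, 45.2, 52.0 and 142 TPM against 45.4 and 46.0 TPM, 0.71 ± 0.43) were above 0 without passing. Hist2h2ab, Hist2h2be and Hist2h3b overlapped, with log2 fold changes of -0.83 ± 0.86, -0.43 ± 0.69 and -0.60 ± 0.94. Hist2h2aa1 and Hist2h2aa2 are copies with nearly the same transcript, and the ratio of their TPM was 1.072 in each of the 5 libraries with a value, at 5.49, 0, 0.550 and 4.62 TPM in Pomc against 1.92 and 11.8 TPM in Npy libraries for Hist2h2aa1, so they carry 1 measurement between them. Hist2h3c1 and Hist2h3c2, which share sequence with Hist2h3b, were listed at 0 in every library. In Hist3, Hist3h2bb-ps was at 22.3, 30.8, 20.1 and 0 TPM in Pomc against 17.0 and 39.9 TPM in Npy libraries (-1.28 ± 1.25). Hist4h4 was at 186, 74.8, 156 and 106 TPM against 91.1 and 162 TPM (0.02 ± 0.37, limma adjusted p = 0.992), and turned to -0.02, -0.03 and -0.04 under the 3 other scalings.

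In 10 places an H2a and an H2b gene start back to back within 500 bases of each other, and in 7 of them both genes were tested. Both log2 fold changes were below 0 in 5 and their signs differed in 2, where 40 of all 51 tested members were below 0. Hist1h2ak and Hist1h2bn, 296 bases apart and similar in mean level at 99.1 and 102 TPM, had -0.93 and -2.11. Hist1h2an and Hist1h2bp, 243 bases apart, had -4.25 and -0.45 at mean levels of 51.8 and 2.74 TPM. Hist1h2ac and Hist1h2bc, 251 bases apart, had -0.70 and 1.21.

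Members whose annotated transcript runs on for at least 200 bases past the stem-loop held most of the histone signal. These 18 genes took 58.0 to 66.0% of the summed TPM in Pomc libraries, against 53.4 and 53.3% in Npy libraries, with a median log2 fold change of -0.22 over 15 tested. The 25 genes whose transcript ends sooner had a median of -0.78 over 19 tested, and the 18 genes without a stem-loop in the annotation, Hist1h1b among them, -0.93 over 17. The sum of those 18 did not overlap between the groups, at 582, 407, 393 and 405 TPM in Pomc against 868 and 1347 TPM in Npy libraries. Absence says only that the stem-loop letters are not within the annotated transcript. In this group, the transcripts of Hist1h2bn and Hist1h2an are 381 and 393 bases long, against a median of 539 over all members. That of Hist2h2be is 2620 bases long. Hist1h2bn and Hist1h2an share 86.4 and 85.8% of their 50-base stretches with other genes, while Hist1h1b, Hist1h1a and Hist2h2be share none. The part of transcript annotation and of similar copies in these differences was not tested. The sources used here do not give the transcript length behind the TPM, and these levels depend on it.

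None of the genes that supply and handle histones passed the test. Over all tested genes 0.412% passed in either direction, so none passing in lists this short is near that share, and 48.7% were below 0. Of 22 tested genes of histone transcription and 3' end processing, 14 were below 0 (median -0.08), and their summed TPM was 1278 to 1435 in Pomc against 1441 and 1388 in Npy libraries. Among them Cpsf3, the nuclease that cuts histone pre-mRNA, was at 116, 95.6, 147 and 185 TPM against 157 and 159 TPM (-0.26 ± 0.26), and Casp8ap2, a factor of histone gene transcription and pre-mRNA processing, at 21.4, 68.2, 39.6 and 46.1 TPM against 41.2 and 13.2 TPM (0.76 ± 0.53). Of 19 tested chaperone and deposition genes, 15 were below 0 (median -0.19). Chaf1b, a subunit of the chaperone that deposits new H3 and H4 behind the replication fork, was at 0.266, 1.505, 0.880 and 0 TPM in Pomc libraries, against 6.37 and 6.63 TPM in Npy libraries, without overlap (-2.26 ± 0.68, limma adjusted p = 0.393). It reached 1 TPM in 1 Pomc library and was tested through its Npy values. The abundant chaperone gene Nap1l1 was at 255, 257, 295 and 343 TPM against 339 and 262 TPM, with overlap (-0.06 ± 0.20).

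The replacement histones, which are also made outside S phase, did not pass either. Of 11 tested genes 9 were below 0 and the median was -0.25, where 48.7% of all tested genes were below 0 and 0.412% passed. H3f3a, which encodes H3.3, was at 1799, 1626, 1833 and 1708 TPM in Pomc against 1527 and 1939 TPM in Npy libraries (0.02 ± 0.20, limma adjusted p = 0.990). The H3 class made up 9.03, 9.16, 6.44 and 7.56% of the summed TPM of itself, H3f3a and H3f3b in Pomc libraries, against 10.8 and 12.0% in Npy libraries. Cenpa, the centromeric H3 variant, was low and without overlap, at 2.57, 0.431, 0.0572 and 0 TPM against 8.06 and 4.72 TPM (-2.24 ± 0.76, adjusted p = 0.492). It reached 1 TPM in 1 Pomc library and was tested through its Npy values. The summed TPM of the 61 members was 0.941, 0.711, 0.673 and 0.602 times that of the 11 replacement genes in Pomc libraries, against 0.9 and 1.01 times in Npy libraries.

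Genes of cell division were also lower in Pomc libraries, without passing. Over all tested genes, 0.412% passed in either direction, 48.7% had log2 fold changes below 0 and 7.86% had separate groups with Pomc lower. All 25 tested genes of G2 and mitosis had log2 fold changes below 0 (median -1.71), none passed, and 11 had separate groups. Their summed TPM was 39.6, 49.9, 46.4 and 111 in Pomc against 264 and 191 in Npy libraries. Ccnb1, the mitotic cyclin B1, was at 1.70, 3.73, 0.661 and 0 TPM against 15.2 and 12.96 TPM (-2.81 ± 0.76, limma adjusted p = 0.310). Mki67, a marker of cycling cells, was at 2.10, 1.65, 0 and 16.4 TPM against 40.6 and 4.84 TPM, with overlap. Of 28 tested genes of DNA replication, 22 were below 0 (median -0.41), none passed and 9 had separate groups, but their sums overlapped, at 416 to 573 TPM in Pomc against 585 and 536 TPM in Npy libraries. Mcm3, a subunit of the replicative helicase, was at 1.61, 0.366, 0 and 0 TPM against 11.8 and 7.36 TPM (-2.91 ± 0.70, adjusted p = 0.222). Some genes of both lists, Mcm3, Birc5 and Cdc20 among them, reached 1 TPM in fewer than 2 Pomc libraries and were tested through their Npy values. The counts below 0 and with separate groups are therefore partly set by the filter. The mitotic sum was larger in Npy replicate 1 and the histone sum in Npy replicate 2. The mean log2(TPM + 1) of the 61 histone members, however, was larger in Npy replicate 1, at 4.42 against 4.12, so their order depends on the measure.

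Markers of other cell types also differed between these libraries. Where 0.123% of all tested genes passed as lower in Pomc, 6 of 10 oligodendrocyte precursor genes did (median -4.25). None of these 6 reached 1 TPM in 2 Pomc libraries. They were tested through their Npy values, so their number against that share is partly set by the filter. The summed TPM of the 10 genes overlapped, at 186 to 376 in Pomc against 449 and 360 in Npy libraries. Vcan, at 139 to 340.3 TPM in Pomc against 84.2 and 56.3 TPM in Npy libraries, ran the other way. The defining markers Olig2 and Cspg4 were listed at 0 in all 4 Pomc libraries, against 14.8 and 19.0 TPM and 21.3 and 17.5 TPM in Npy libraries. Of 9 tested radial glia and tanycyte genes 7 were below 0 and none passed, with sums of 296 to 661 TPM against 650 and 436 TPM. Fabp7 was at 17.4, 21.8, 1.61 and 61.6 TPM against 323 and 176 TPM (-3.89 ± 1.00, limma adjusted p = 0.272). Of 14 tested pan-neuronal genes 11 were above 0 and none passed, with sums of 6464 to 8217 TPM in Pomc against 5919 and 4741 TPM in Npy libraries, without overlap. Only 2 microglial, 3 endothelial and 2 erythroid genes were tested and none passed; their summed TPM was 0.263 to 23.6 against 4.10 and 9.97, 0.656 to 10.7 against 3.01 and 1.73, and 0 to 88.8 against 1.31 and 0. Of the genes that name the sorts, Pomc was at 770.3, 352, 397 and 553 TPM against 24.0 and 59.4 TPM, and Npy at 152, 2.11, 81.0 and 54.2 TPM against 728 and 513 TPM. The part of these cell types, and of dividing cells, in the histone differences was not tested.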

How the data were processed

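Per the labels, 1 ng of total RNA from dissociated arcuate cells went into a stranded total RNA kit. The submitters' processing notes name HISAT2, edgeR 3.8 and mm10, with no role or order. The values deposited by the authors carry no unit and were taken as TPM, since the 6 columns used share the fixed total of that unit. Of the counting tool, annotation, strand use and read depth nothing is given in the sources used here. Depth being unknown, no counting interval can be had, and genes with similar copies are uncertain. From the TPM, log2(TPM + 1) was compared between 4 Pomc and 2 Npy libraries with limma 3.58.1 (R 4.3.3, trended prior variance) over the 13845 genes reaching 1 TPM in at least 2 libraries, and p-values were adjusted over all of them by Benjamini-Hochberg at 0.05. The 4 rows with repeated names were left out. A fold change on this scale understates that of low genes. The fit was tested on simulated data. Named members are those past the threshold, the 3 most abundant and 2 most changed per class, and all tested members of Hist2, Hist3 and Hist4. From each other list, up to 3 were eligible by level and 3 by change, and a selection is given. The limits of 100 TPM, 200 bases, 50 bases and 50% and the split of chromosome 13 were set after seeing the values. The members and lists were chosen with earlier results of these data known. Sequences come from RefSeq and GENCODE M21.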

Additional observations from a re-analysis of the deposited data

Results flagged for a closer look

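Over the 30 named members and the summed TPM of the family and of its 5 classes, the Pomc library farthest from its nearest neighbour was set against the range of the 4 Pomc libraries. Of these 36 items Hist1h3b met the limit for a library set apart, with Pomc replicate 3 at 8.46 TPM and the remaining Pomc libraries between 0 and 1.24 TPM. Chance gives about 1 in 20 such cases, so that a single one among 36 is no more than chance gives. The gene is listed at 0 in 2 of the Pomc libraries. Both Npy libraries, at 26.4 and 132 TPM, were higher.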

How the results depend on the processing

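The number of histone genes called, 1 in the fit reported, was 0 with 1 prior variance for all genes, with no filter, with a pseudocount of 0.1 and where 5 TPM had to be reached in 3 libraries, which removed Hist1h1b. It was 2 with a pseudocount of 5 and 6 with all 7 columns, which add no measurement, and ranged from 0 to 1 without each replicate in turn. None of the cell cycle and histone supply genes was called by limma, where 0.412% of all tested genes were, against 2 with all 7 columns. Their count also moved without Npy replicate 1, a fit with 1 Npy library. At an unadjusted limma p under 0.05, 17 of these genes were lower in Pomc, as were 3.28% of all tested genes. They held 11 of 25 tested genes of G2 and mitosis and 4 of 28 of DNA replication. The others were 1 of 19 chaperone genes and 1 of 11 replacement histones. Some of the 17, such as Birc5, Mcm3 and Chaf1b, were tested through their Npy values. With the replicate number as a block, no histone gene was called, the median log2 fold change was -0.22 in place of -0.70, and Hist1h4d, Hist3h2bb-ps and Hist4h4 turned to 0.32, 0.0029 and -0.04. Same-numbered libraries deviated from their group means with correlations of -0.044 and -0.033. With 2 Npy libraries the Npy deviations are mirror images, so these values cannot show whether the numbers mark pairs. The log2 ratio of summed histone TPM, -0.52, ranged from -0.76 to -0.23 without each replicate. Median-ratio scaling, quantile normalization and rescaling without short RNA genes kept the call of Hist1h1b and turned Hist4h4 to -0.02, -0.03 and -0.04. Leaving out 1 replicate turned these uncalled members: Hist2h3b (-1.77 to 0.57), Hist3h2ba (-0.25 to 0.54), Hist4h4 (-0.39 to 0.43), Hist1h1e (-0.62 to 0.17), Hist1h2ac (-1.60 to 0.19), Hist1h3e (-0.64 to 0.39), Hist1h4a (-1.62 to 0.06), Hist1h4d (-0.40 to 0.21) and Hist1h4h (-0.28 to 0.01). The cause was not tested. Pseudocount, filter and prior do not enter the summed TPM, which has no value for them, for quantile normalization or for the block. With 2 Npy libraries and unknown depth, differences among members under about 1 TPM were not resolved.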
